A study of Mus musculus with 8 samples.

Results

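Yolk sacs of mouse embryos that lacked Rbpj in the endothelium were compared with wild type yolk sacs of the same cross, across all genes that the arrays measured. The comparison used 4 of the 8 arrays of the series, and its members were taken from the sample labels alone. The EC-Rbpj-KO group held 2 arrays with the genotype Tie2-Cre; Rbpj flox/flox, and the control group held 2 arrays labelled wild type. All 4 samples were whole yolk sac tissue at embryonic day 9.5 of a mixed strain, from crosses in which the sire carried the Tie2 transgene and both parents carried 1 floxed Rbpj allele. No genotype beyond wild type was given for the control samples, so whether they carried a floxed allele or the transgene is unknown. The names give each array a number of its own, but no label says in words that the samples of a group came from separate embryos. A limma p-value here rests on how far the 2 samples within each of the 4 groups differ, moderated across genes, and on no other spread. The other 4 arrays, Tie2-driven activated Notch1 (EC-N1ICD) and its wild type, entered the fit for the spread and were used for the test of a difference between the models. The signals are linear MAS5 values of Affymetrix probe sets, given below as the EC-Rbpj-KO values of replicates 1 and 2 followed by the wild type values of replicates 1 and 2.

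Notch receptors are cut after they bind a ligand on a neighbouring cell, and the freed intracellular domain enters the nucleus. There it joins RBPJ, a DNA-binding protein that otherwise holds target genes down with corepressors, and the complex turns on genes such as those of the Hes and Hey families. In the yolk sac, Notch signaling takes part in arterial identity and in the remodeling of the capillary plexus into larger vessels. The Tie2 promoter acts in endothelial cells and also in much of the blood lineage, while the visceral endoderm, the absorptive and secretory epithelium that makes up much of the yolk sac, does not descend from cells that express it. The endoderm markers were among the strongest signals of these samples, with Afp between 26543 and 29705 and Ttr between 27187 and 29993. All 7 endoderm, all 5 primitive erythroid and 5 of 6 endothelial markers exceeded the array-wide median signal on each of the 4 arrays, while Pecam1 did not. The neural markers Sox2, Pax6 and Neurog2 and the trophoblast marker Tpbpa were below the filter on low signals. The 6 endothelial markers summed to 991 and 900 on the mutant arrays and to 965 and 1018 on the wild type arrays. In whole tissue, fewer cells of a type and less RNA per cell cannot be told apart.

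The 4 arrays differed in ways that the genotype does not name. Pearson correlations of log2 signals were 0.976 between the EC-Rbpj-KO arrays, 0.987 between the wild type arrays and 0.966 to 0.969 between the groups. Xist, the transcript of the inactive X chromosome, gave 2005 and 84 in EC-Rbpj-KO and 90 and 77 in wild type. The Y-linked genes went the other way, Eif2s3y at 12 and 827 against 870 and 864 and Kdm5d at 8 and 268 against 219 and 188. EC-Rbpj-KO replicate 1 thus read as female and the other 3 samples as male, so the mutant arrays cannot be of 1 embryo. Sex was not balanced between the groups, and its part in the results below was not tested. EC-Rbpj-KO replicate 1 also carries another first number in its name, while the other 3 share theirs, and the labels do not say what this number stands for. The 3' over 5' signal ratio, which rises as RNA degrades, was raised on each of the mutant arrays for Actb (2.29 and 2.09 against 1.90 and 1.84) but for Gapdh only on replicate 1 (4.64 and 3.45 against 3.17 and 3.51), and its part in the results below was not tested.

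Rbpj was lower on both EC-Rbpj-KO arrays, at 470 and 497 against 984 and 919. The difference was -0.98 on the log2 scale (standard error 0.17, n = 2 per group, limma adjusted p = 0.00866), and the groups did not overlap. Without wild type replicate 1 or 2 the adjusted p was 0.0760 or 0.0602. Nrarp, a Notch target whose product feeds back on the Notch complex, rose rather than fell, from 855 and 1001 to 1598 and 1514 (log2 fold change 0.75, standard error 0.16, limma adjusted p = 0.0222). The call of Nrarp ended when the first mutant array or either of the wild type arrays was left out. It also ended with the mean of all probe sets (limma adjusted p = 0.0975), and a second Nrarp probe set read 186 and 204 against 210 and 126. Hes1, a classical Notch target, was at 445 and 362 against 556 and 515, and this change of -0.41 did not pass the test (limma adjusted p = 0.262). Hey1 was at 66 and 69 against 72 and 70. Hey2, Heyl, Hes5, Notch4 and Dll4 were below the filter on low signals. None of the 29 tested Notch receptors, ligands and processing enzymes passed the limma test, and 5 had an unadjusted p under 0.05. Notch1 was at 176 and 188 against 260 and 246, and Jag1 had a log2 fold change of -0.37. The arterial ligand Efnb2 was at 84 and 36 against 117 and 122 (log2 fold change -1.12, limma adjusted p = 0.0977).

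Across the 10913 tested genes, 541 changed (4.96% of those tested, limma adjusted p under 0.05). Of these, 218 rose (2%) and 323 fell (2.96%). The change was at least 2-fold in 124 of the risen and 133 of the fallen genes. In 7 risen genes, among them Ly86, Ch25h, Dkk1 and Cfc1, both wild type signals were below the array-wide median signal. In 9 fallen genes both EC-Rbpj-KO signals were below it. Background limits the size of these folds, and such genes passed the signal filter through the arrays where they were high. With only the direction counted, 2545 genes (23.3%) had both EC-Rbpj-KO signals above both wild type signals and 2996 (27.5%) had both below. The shares over all tested genes in this paragraph are the background for the counts of each list below. The balance of rises and falls depended on the scaling: 375 genes rose and 299 fell after the arrays were centred on the median of the tested genes, and 358 rose and 302 fell after quantile normalization. With each array left out in turn, between 147 and 628 genes were called, lowest without wild type replicate 2, and 100 genes (36 risen, 64 fallen) were called in each of these 4 fits.

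**Figure D1:**
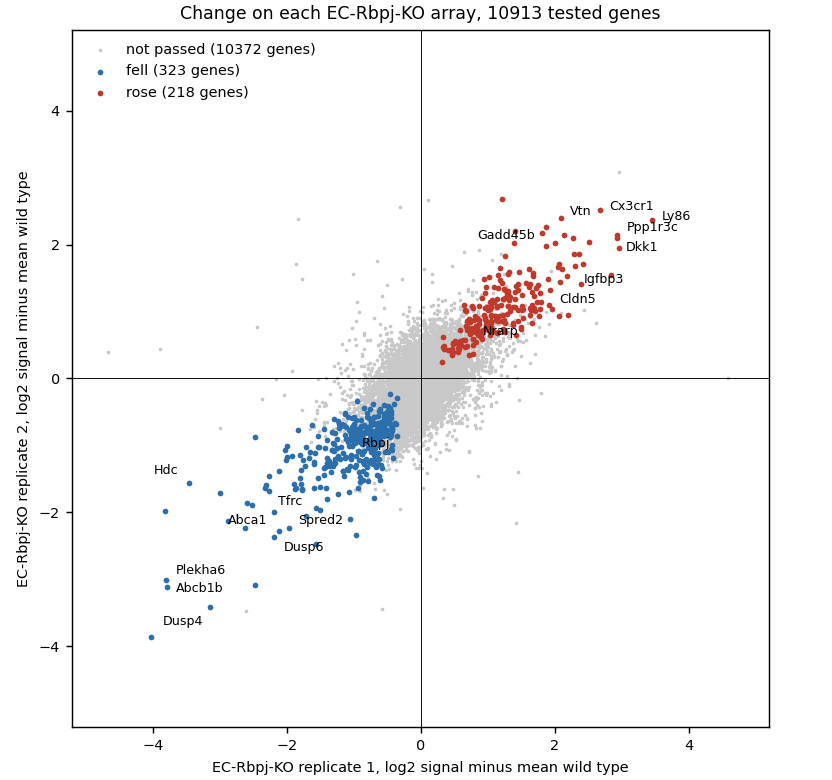
Log2 signal of each tested gene on EC-Rbpj-KO replicate 1 (horizontal axis) and replicate 2 (vertical axis), each minus the mean log2 signal of the 2 wild type arrays. Blue points are the 323 genes that fell, red points the 218 that rose and grey points the genes that did not pass the test, and 1 gene lies outside the axes. Dusp4, Abcb1b and Plekha6 lie at the lower left end and Ly86, Cx3cr1 and Vtn at the upper right end on both arrays.

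Among the signaling lists the lowest median was that of FGF, EGF and ERK feedback genes. This list holds receptors and a transcription factor beside feedback genes, which ERK activity switches on and whose products then restrain it. Of the 23 tested members, 9 fell and 1 rose (9 and 2 after median centring or quantile normalization), and 14 had both EC-Rbpj-KO signals below both wild type signals. Over all tested genes the shares were 2.96% fallen, 2% risen and 27.5% with both signals below. The median log2 fold change of the list was -0.47, against -0.02 over all tested genes. It was similar on both mutant arrays, at -0.51 and -0.50 relative to the wild type mean. Dusp4, a nuclear phosphatase that inactivates ERK, went from 283 and 358 to 36 and 30, a log2 fold change of -3.28 (standard error 0.24, limma adjusted p = 7.27e-05). Both mutant signals were below the array-wide median signal, so background limits the size of this fold. Dusp6, the cytoplasmic ERK phosphatase, went from 522 and 515 to 114 and 101 (log2 fold change -2.27, standard error 0.18, limma adjusted p = 0.000116). Spred2, a membrane inhibitor of Ras signaling, went from 1462 and 1394 to 366 and 304 (log2 fold change -2.10, standard error 0.19, limma adjusted p = 0.000405). A dimmer probe set of Spred2 did not show this difference, at 59 and 105 against 65 and 96. Etv5, an ETS transcription factor induced by FGF, went from 1320 and 1361 to 394 and 425, a log2 fold change of -1.71. Several other inhibitors in the list fell by less. Spry1 was at 602 and 563 against 1208 and 1269, Spred1 at 418 and 436 against 905 and 682, and Il17rd, a receptor-like inhibitor of FGF signaling, at 175 and 82 against 276 and 291. Spry2 and Dusp5 had log2 fold changes of -1.06 and -0.96. The receptor Fgfr4 was the member that rose, from 1172 and 1035 to 1782 and 1885. In all, 7 of the 23 tested members had a log2 fold change above 0. The inhibitor gene Errfi1 changed little, at 1209 and 1052 against 1115 and 1279, and the receptor gene Fgfr3 was at 917 and 802 against 718 and 681. Outside the list, the Ras GTPase-activating protein gene Rasa2 fell from 526 and 425 to 179 and 191, and Phlda1 fell from 752 and 837 to 378 and 245. Dusp4, Dusp6, Spred2, Etv5 and Rasa2 were called in each fit without 1 array. The other calls of this paragraph ended in at least 1 of them, with adjusted p-values of 0.0555 to 0.281 where they did, without EC-Rbpj-KO replicate 2 or either wild type array.

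**Figure D2:**
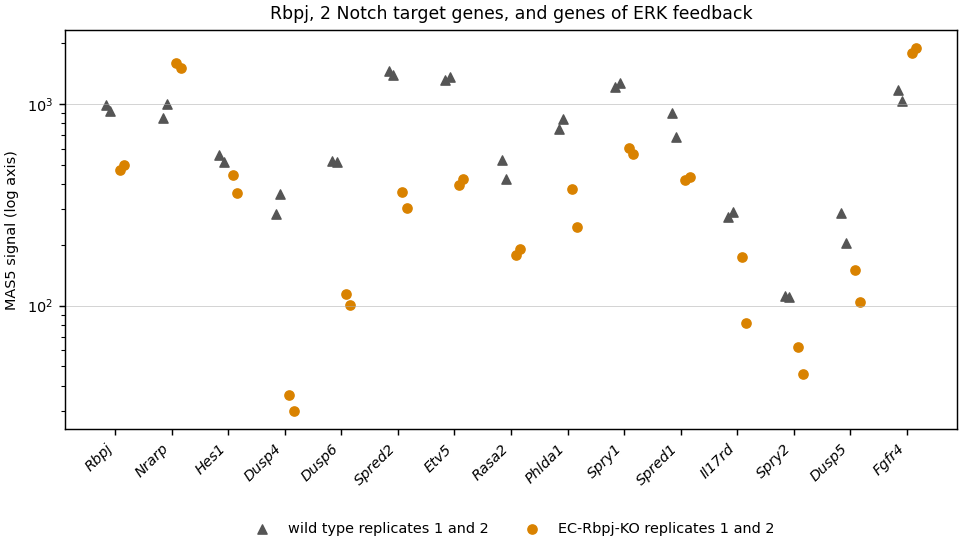
MAS5 signal on a log axis for Rbpj, the Notch target genes Nrarp and Hes1, and genes of the ERK feedback account. Triangles are the 2 wild type arrays and circles the 2 EC-Rbpj-KO arrays. The circles lie below both triangles for Dusp4 through Dusp5 and above them for Nrarp and Fgfr4.

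Genes for making ribosomes were lower over most of their list. This list of processing factors, nucleolar proteins and RNA polymerase I subunits was put together after the values were seen. Of its 120 tested members, 92 had both EC-Rbpj-KO signals below both wild type signals and 3 had both above, against 27.5% and 23.3% of all tested genes. The median log2 fold change was -0.34, and it was -0.33 and -0.32 on the mutant arrays taken singly. After median centring and quantile normalization the median was -0.27 and -0.24. Single genes moved by modest amounts, and 19 members fell and 1 rose at the adjusted threshold. Mdn1, a giant AAA-type ATPase that strips assembly factors from the large subunit, went from 536 and 489 to 230 and 197 (log2 fold change -1.27, standard error 0.19, limma adjusted p = 0.00398). Wdr75, a component of the small subunit processome, went from 1754 and 1666 to 1029 and 908, a log2 fold change of -0.82. The large subunit assembly factor Rrs1 went from 4374 and 4032 to 2508 and 2692. In each of these genes the gap between the groups was wider than that between replicates. Further falls were those of Rrp15 (-0.80), Nip7 (-0.65), Rcl1 (-0.70), Nolc1 (-0.87) and Gnl3 (-0.48) on the log2 scale. The kinase gene Riok2, which acts late in small subunit maturation, was the member that rose, from 279 and 207 to 636 and 506, but of its 3 other probe sets 2 went the opposite way, with log2 fold changes of -0.42 and -0.44, and 1 was near background. Of the genes named here, Mdn1 was called in each fit without 1 array. Of 29 tested cytosolic ribosomal protein genes, the parts of the finished ribosome, none passed the limma test, 2 had an unadjusted p under 0.05 and the median was -0.01 (0.06 after median centring).

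Other genes of growth and biosynthesis lay on the same side. Myc, a transcription factor that drives ribosome and nucleotide production, went from 431 and 430 to 260 and 179 (limma adjusted p = 0.0278). Of 30 tested genes of nucleotide, folate and polyamine synthesis, also listed after the values were seen, 8 fell and none rose, 21 had both mutant signals below both wild type signals, and the median was -0.36. Gldc, the decarboxylase of the mitochondrial glycine cleavage system, which feeds the folate cycle, went from 5347 and 5825 to 3143 and 3158 (log2 fold change -0.82, standard error 0.11, limma adjusted p = 0.00277). The folate enzymes Shmt1 and Mthfd1l had log2 fold changes of -0.75 and -0.84. The purine and pyrimidine enzymes Pfas (-0.92), Gmps (-0.55) and Ctps (-0.67), the spermidine synthase gene Srm (-0.47) and the methionine salvage gene Adi1 (-1.30) fell as well, though another Adi1 probe set read 529 and 863 against 760 and 657. A list of RNA polymerase III, tRNA modification and translation initiation genes, of the same origin, had 6 of 49 tested members that fell (3 after median centring, 5 after quantile normalization), none that rose and a median of -0.24. Among these, the cap-binding protein gene Eif4e went from 3426 and 3260 to 2306 and 2227 on its brightest probe set, but a second one read 1780 and 1961 against 2010 and 1781. Of 45 tested cell cycle genes 1 rose (2 after either rescaling), the growth inhibitor Cdkn1c (13823 and 11372 against 7471 and 8084), none fell, and the median was 0.00. Of 47 pre-mRNA splicing genes 24 had both mutant signals below both wild type signals, with a median of -0.16, and 1 passed the test, Hnrnpl (502 and 323 against 955 and 927). Gldc, Adi1 and Cdkn1c were called in each fit without 1 array. For the other genes that changed in this paragraph and the one before, Mdn1 apart, the call ended without wild type replicate 1, wild type replicate 2 or both, and for some also without an EC-Rbpj-KO array, with adjusted p-values of 0.0528 to 0.332 where it did.

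The letters CACGTG, the core E-box that Myc and related factors can bind, were looked for in the 300 bases around the gene start in the RefSeq table (250 before and 50 after, build GRCm38.p6). The search was chosen after the values were seen, and the letters read alike on both strands. They were present in 20 of the 100 ribosome biogenesis genes that had a promoter in the table (20%, Wilson 95% interval 13.3 to 28.9) and in 1067 of 8871 tested genes with one (12.03%). The share was 15.1% of the fallen genes with a promoter (Wilson 95% interval 11.2 to 20.1). It was 7.36% of the risen ones (4.26 to 12.4). Both of these intervals include the 12.03% of all tested genes. In the list of nucleotide, folate and polyamine synthesis the letters were in 3 of 26 genes with a promoter (11.5%), not above that share. A match is a description of sequence and not a site. It is shown for 3 of the fallen genes, with the letters of the motif in capitals, in 30-base windows that lie just after the gene start.
Mdn1, chr4:32657139-32657168, plus strand: caacgtgaattccttcacCACGTGtgtgtc
Tsr1, chr11:74898092-74898121, plus strand: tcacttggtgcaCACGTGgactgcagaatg
Wdr43, chr17:71616220-71616249, plus strand: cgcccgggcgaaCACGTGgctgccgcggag
Tsr1, a factor of small subunit maturation, went from 5012 and 4959 to 3476 and 3491, and Wdr43, a small subunit processome component, from 1567 and 1643 to 994 and 1008. Both calls ended in each of the 4 fits without 1 array.

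**Figure D3:**
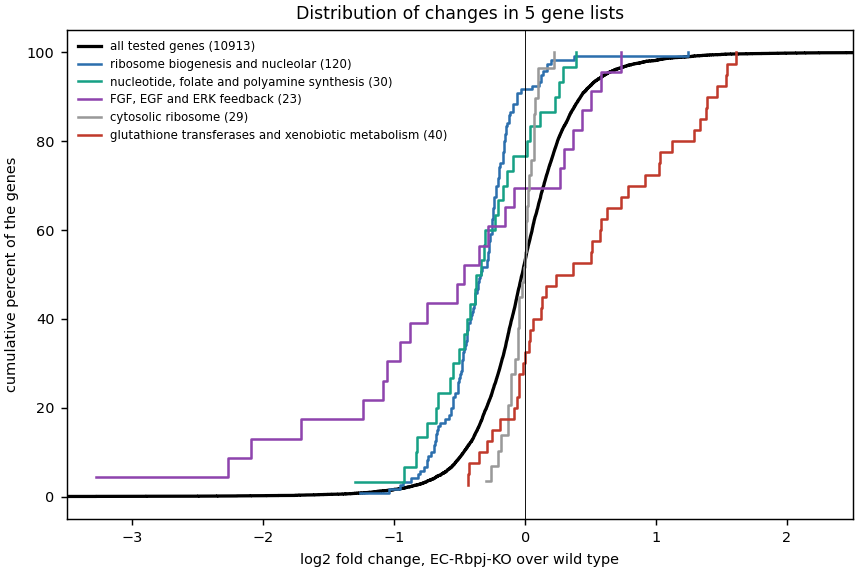
Cumulative percent of genes (vertical axis) at or below each log2 fold change (horizontal axis) for all tested genes and 5 lists, with the number of tested genes in brackets. The curves of ribosome biogenesis and nucleotide synthesis lie to the left of all tested genes over most of their range, that of ERK feedback reaches furthest left of the 5 lists, and that of glutathione transferases lies to the right.

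Several genes of uptake and transport were lower, among them genes of endocytosis and absorption listed for the visceral endoderm. In whole tissue, the cells in which these genes fell are unknown. Of 28 tested endoderm transcription factor genes none fell and 1 rose, Sox17, which endothelium also expresses, while 3 rose after median centring and after quantile normalization. Of 41 tested genes of endocytosis and absorption 9 fell and 1 rose (6 and 8 fell after median centring and quantile normalization), yet the median of the list was -0.09 and 17 had both mutant signals below both wild type signals. Of all tested genes 2.96% fell, 2% rose and 27.5% had both mutant signals below. Lrp2, the large endocytic receptor megalin, went from 2910 and 2488 to 1561 and 931 (log2 fold change -1.16, standard error 0.23, limma adjusted p = 0.0156). Its partner cubilin (Cubn) went from 20980 and 19984 to 14936 and 17440, a log2 fold change of -0.34. Both receptors had mutant signals below both wild type signals. Fcgrt, the receptor that carries maternal IgG across epithelia, went from 3617 and 4994 to 2313 and 2150. Slc39a8, a zinc and manganese importer, went from 9562 and 8372 to 2996 and 4140 (log2 fold change -1.35, standard error 0.14, limma adjusted p = 0.00075). Of 50 tested solute carriers 6 fell and none rose, but 5 rose beside 6 that fell after either median centring or quantile normalization. Among them were the sulfate carriers Slc26a2 (736 and 658 against 1489 and 1529) and Slc13a4 (2191 and 4181 against 6516 and 6969), and the vitamin C carrier Slc23a2 (150 and 108 against 281 and 288). Of 30 tested ABC transporter genes 3 fell (2 after median centring) and none rose. Abca1, which loads cholesterol onto nascent lipoproteins, went from 3054 and 2891 to 685 and 610 (log2 fold change -2.20, standard error 0.15, limma adjusted p = 5.9e-05). Abcb1b, a multidrug efflux pump, went from 1662 and 1509 to 114 and 183, and Abcg2, another efflux pump, from 9318 and 9618 to 6869 and 6992. The transferrin receptor gene Tfrc, through which cells take up iron, went from 2691 and 2470 to 535 and 807, a log2 fold change of -1.97. The heme exporter gene Flvcr1 went from 666 and 647 to 343 and 309. Abca1, Abcb1b, Slc39a8, Slc26a2 and Tfrc were called in each fit without 1 array. The calls of Lrp2, Cubn, Fcgrt, Abcg2, Slc13a4, Slc23a2 and Flvcr1 ended without at least 1 array, in each case without wild type replicate 2, with adjusted p-values of 0.0515 to 0.162 where they did.

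Secreted plasma proteins of the endoderm went both ways. Of 46 tested genes 5 rose, 2 fell and the median was -0.07. Vtn, which encodes the adhesive plasma protein vitronectin, went from 379 and 297 to 1438 and 1760 (log2 fold change 2.25, standard error 0.20, limma adjusted p = 0.000253). The antithrombin gene Serpinc1 was at 2509 and 2062 against 1104 and 1362, and Kng1, the kininogen gene, at 7947 and 6322 against 4303 and 3412. Plasminogen (Plg), by contrast, went from 5215 and 5217 to 2378 and 2906 (log2 fold change -0.99, limma adjusted p = 0.00277). The secreted ribonuclease gene Rnase4 went from 7837 and 8351 to 3327 and 4594. Vtn, Plg and Rnase4 were called in each fit without 1 array, while the calls of Serpinc1 (without wild type replicate 1) and Kng1 (in each of the 4 fits) ended.

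Lipid synthesis was lower in part. Of 26 tested sterol genes 15 had both mutant signals below both wild type signals and 2 had both above, and the median was -0.30, but 2 passed the test as falls (1 after either rescaling), Msmo1 (1291 and 1822 against 2859 and 2998) and Sqle (2408 and 3193 against 4392 and 4244), both enzymes of cholesterol synthesis. The other steps were less certain, as with Cyp51 at 503 and 1091 against 1607 and 1299 (limma adjusted p = 0.0886). Ch25h, whose product makes 25-hydroxycholesterol, rose from 25 and 31 to 136 and 101. Of 29 fatty acid genes 4 fell and 1 rose (3 and 0 after median centring). Fasn, the fatty acid synthase gene, went from 1955 and 1909 to 1014 and 1113, and Elovl6, which extends its product, from 2881 and 2447 to 1592 and 1687. Of 31 genes of the amino acid response 4 fell and 1 rose, and among the falls was Cebpb (366 and 436 against 981 and 859), which encodes a stress-induced C/EBP factor. In the unfolded protein response list 2 of 26 fell (1 after median centring), the transcription factor gene Xbp1 (6902 and 6711 against 9855 and 9030) and Manf (4441 and 3721 against 5944 and 6822). Cebpb and Ch25h were called in each fit without 1 array. The calls of Msmo1, Sqle, Fasn, Elovl6, Xbp1 and Manf ended without wild type replicate 2, and those of all but Manf also without wild type replicate 1. Those of Msmo1, Sqle and Fasn also ended without EC-Rbpj-KO replicate 1, and those of Fasn and Manf without EC-Rbpj-KO replicate 2.

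Metabolic genes that are typical of liver were among the rises. In a list of glutathione transferases and other enzymes of foreign compound metabolism, put together after the values were seen, 40 of 76 listed genes could be tested, 11 rose, none fell and the median was 0.30. Gstm3 went from 1164 and 1002 to 2309 and 2386 (log2 fold change 1.12, standard error 0.16, limma adjusted p = 0.00295). Gsta2 was at 1241 and 1023 against 361 and 520, and Gsta4 at 1901 and 1712 against 340 and 1032, where the wild type arrays were far apart. The cytochrome P450 genes Cyp2s1 (2204 and 2327 against 1203 and 1023), Cyp2c68 (829 and 585 against 335 and 173) and Cyp2a12 (182 and 193 against 89 and 66) rose. Vnn1, an enzyme that splits pantetheine, went from 1778 and 1513 to 5681 and 3617. In glycogen metabolism 3 of 18 tested genes rose and 1 fell, against 2% and 2.96% of all tested genes. In 10 of the 18 both mutant signals were above both wild type signals, against 23.3% of all tested genes. Gys2, the liver glycogen synthase gene, went from 91 and 69 to 342 and 245 (log2 fold change 1.87, standard error 0.27, limma adjusted p = 0.00351). Ppp1r3c, which targets a phosphatase to glycogen, went from 49 and 50 to 379 and 212. Slc37a4, the glucose-6-phosphate transporter gene, went from 1875 and 1866 to 3307 and 3208, while Fbp2, a fructose bisphosphatase gene, fell from 1375 and 1310 to 553 and 581. Amino acid breakdown had no shared direction: 5 of 30 tested genes rose and 6 fell (6 and 4 after median centring). The urea cycle gene Otc was at 1015 and 693 against 385 and 393 and the methionine cycle gene Bhmt at 742 and 740 against 334 and 269. The tyrosine and lysine breakdown genes Hgd and Aass went the other way, at 585 and 814 against 1969 and 1741 and at 2122 and 2346 against 4843 and 4216. Gstm3, Vnn1, Gys2, Ppp1r3c, Hgd and Aass were called in each fit without 1 array. For Gsta2, Gsta4, Cyp2s1, Cyp2c68, Cyp2a12, Slc37a4, Fbp2, Otc and Bhmt the call ended in at least 1 such fit (wild type replicate 1 for Gsta2, Gsta4, Fbp2 and Otc, wild type replicate 2 for all but Gsta4). For Gsta2, Gsta4, Cyp2c68, Cyp2a12 and Otc it also ended without an EC-Rbpj-KO array.

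Genes that low oxygen or nutrient stress induces were higher. Of 27 tested hypoxia genes 4 rose (6 and 5 after median centring and quantile normalization), none fell, 15 had both mutant signals above both wild type signals and the median was 0.33. Of all tested genes 2% rose and 23.3% had both mutant signals above. Ndrg1, a stress-induced gene, went from 475 and 483 to 2175 and 1377 (log2 fold change 1.85, standard error 0.25, limma adjusted p = 0.0023). Ddit4, whose product restrains the growth kinase mTORC1, went from 112 and 183 to 523 and 685 (log2 fold change 2.06, standard error 0.36, limma adjusted p = 0.00881). Adm, which encodes the vessel-acting peptide adrenomedullin, went from 151 and 113 to 683 and 348, a log2 fold change of 1.90. In all 3 the lower mutant signal lay well above the higher wild type signal. Calcrl, the receptor subunit for adrenomedullin, went the opposite way, from 528 and 455 to 181 and 181 (log2 fold change -1.44, limma adjusted p = 0.00166). The glycolytic regulator Pfkfb3 rose (233 and 132 against 68 and 56), but of 16 tested glycolysis genes 1 fell, and none rose except 1 after quantile normalization. Bnip3 and Egln1, other hypoxia genes, had log2 fold changes of 0.49 and 0.59 (limma adjusted p = 0.0529 and 0.0578). Of 16 tested genes of the insulin-like growth factor axis 3 rose, none fell and the median was 0.10. The binding protein gene Igfbp3 went from 272 and 241 to 1260 and 818 (log2 fold change 1.99, standard error 0.21, limma adjusted p = 0.000661), Igfbp1 from 2552 and 3279 to 7916 and 7654, and the growth factor gene Igf1 from 129 and 107 to 364 and 227. Another binding protein gene, Igfbp4, was at 13734 and 14211 against 14087 and 14172. Igfbp1 and Wnt4 (described below) are also on the list of decidua genes, the maternal tissue removed at dissection, of which 2 of 11 tested rose, none fell and the median was 0.15, and its part in these rises was not tested. Gadd45b, a stress-induced gene, went from 177 and 185 to 664 and 714, and Dbp, a clock output factor gene, from 265 and 218 to 898 and 671. Sgk1, a kinase gene induced by glucocorticoid and growth factors, fell from 209 and 251 to 81 and 59. A list of circadian output and glucocorticoid response genes, put together after the values were seen, had no shared direction. Of its 19 tested members 3 rose and 1 fell, and the median was 0.04. The calls of Ddit4 (without wild type replicate 1), Igf1 (without wild type replicate 2 or EC-Rbpj-KO replicate 1) and Pfkfb3 (without either of the wild type arrays or EC-Rbpj-KO replicate 1) ended, with adjusted p-values of 0.0521 to 0.244.

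**Figure D4:**
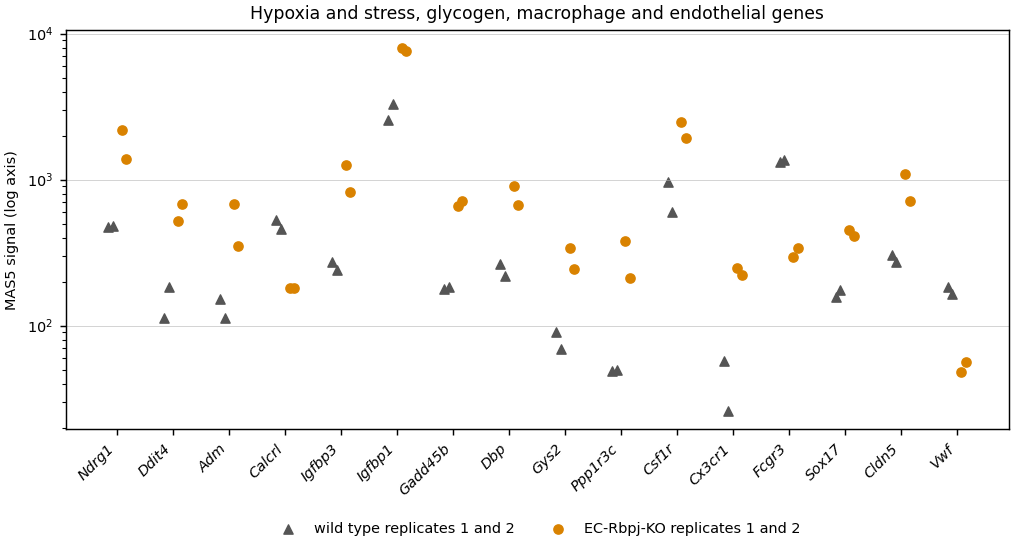
MAS5 signal on a log axis for genes of hypoxia and stress, insulin-like growth factor binding, glycogen, macrophages and endothelium. Triangles are the 2 wild type arrays and circles the 2 EC-Rbpj-KO arrays. The circles lie above both triangles except for Calcrl, Fcgr3 and Vwf, where they lie below.

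Macrophage genes were mostly higher. Of 29 tested members 7 rose, 2 fell, 14 had both mutant signals above both wild type signals and the median was 0.47. Of all tested genes 2% rose, 2.96% fell and 23.3% had both mutant signals above. Csf1r, the receptor for the macrophage growth factor, went from 965 and 599 to 2497 and 1935 (log2 fold change 1.53, standard error 0.23, limma adjusted p = 0.00391). Laptm5, a lysosomal gene of blood cells, was at 721 and 530 against 307 and 206, and Ctss, a protease of antigen-presenting cells, at 310 and 189 against 64 and 52. Adgre1, the F4/80 antigen gene, was at 156 and 187 against 85 and 47. The members that fell were the Fc receptor gene Fcgr3 (293 and 338 against 1322 and 1366) and the lysosomal gene Cd68 (108 and 164 against 255 and 255). Of 6 macrophage markers, 2 exceeded the array-wide median signal on all 4 arrays, and Aif1, C1qa and Fcgr1 were below the filter. Csf1r, Fcgr3, Ly86 (302 and 142 against 29 and 26) and Cx3cr1 (246 and 221 against 57 and 26) were called in each fit without 1 array. Both wild type signals of Ly86 were below the array-wide median signal, so background limits the size of its fold. The calls of Ctss, Laptm5, Adgre1 and Cd68 ended without wild type replicate 2, Ctss and Cd68 also without replicate 1 of either group and Adgre1 also without either EC-Rbpj-KO array, with adjusted p-values of 0.0605 to 0.280. Of 26 tested interferon response genes none passed the limma test and 6 had an unadjusted p under 0.05, with a median of 0.33. Both mutant signals lay above both wild type signals in 16 of the 26, against 23.3% of all tested genes. In none did both lie below, against 27.5%. Ifit3 was the nearest to the threshold, at 122 and 66 against 37 and 30 (limma adjusted p = 0.0502). After median centring 4 of these genes rose, and after quantile normalization 2 did.

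Endothelial genes moved in both directions. Of 32 tested pan-endothelial genes 3 rose and 1 fell (7 rose after median centring and 5 after quantile normalization), with a median of 0.28, which was 0.57 on the first mutant array and 0.15 on the second. Sox17, a transcription factor gene of arterial endothelium, went from 157 and 174 to 454 and 411 (log2 fold change 1.39, standard error 0.18, limma adjusted p = 0.00186). Cldn5, a tight junction gene of endothelium, was at 1095 and 715 against 302 and 273, and Icam2 at 417 and 244 against 170 and 141. Vwf, the von Willebrand factor gene, went from 185 and 164 to 48 and 56. Of 15 tested arterial genes 2 rose (3 after either rescaling), Sox17 and Igfbp3, and 1 fell, the gap junction gene Gja4 (36 and 46 against 121 and 98), and the median was -0.28. Of 13 tested genes of sprouting tip cells 4 rose and none fell, among them Adm and Igfbp3, described above, and Apln, the apelin peptide gene, from 125 and 119 to 383 and 247. Plat, the tissue plasminogen activator gene, was at 543 and 424 against 249 and 221. Nostrin, which binds endothelial nitric oxide synthase, fell from 854 and 939 to 447 and 541. Sox17, Cldn5, Vwf and Calcrl were called in each fit without 1 array. The calls of Icam2, Gja4, Plat and Nostrin ended without either wild type array, and that of Apln without wild type replicate 2. Those of Icam2, Gja4 and Plat also ended without EC-Rbpj-KO replicate 1. The list of primitive erythroid genes differed between the mutant arrays, with a median of -0.65 on replicate 1 and 0.01 on replicate 2 relative to the wild type mean, and the fall in Tfrc was the 1 call among its 41 tested genes.

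**Figure D5:**
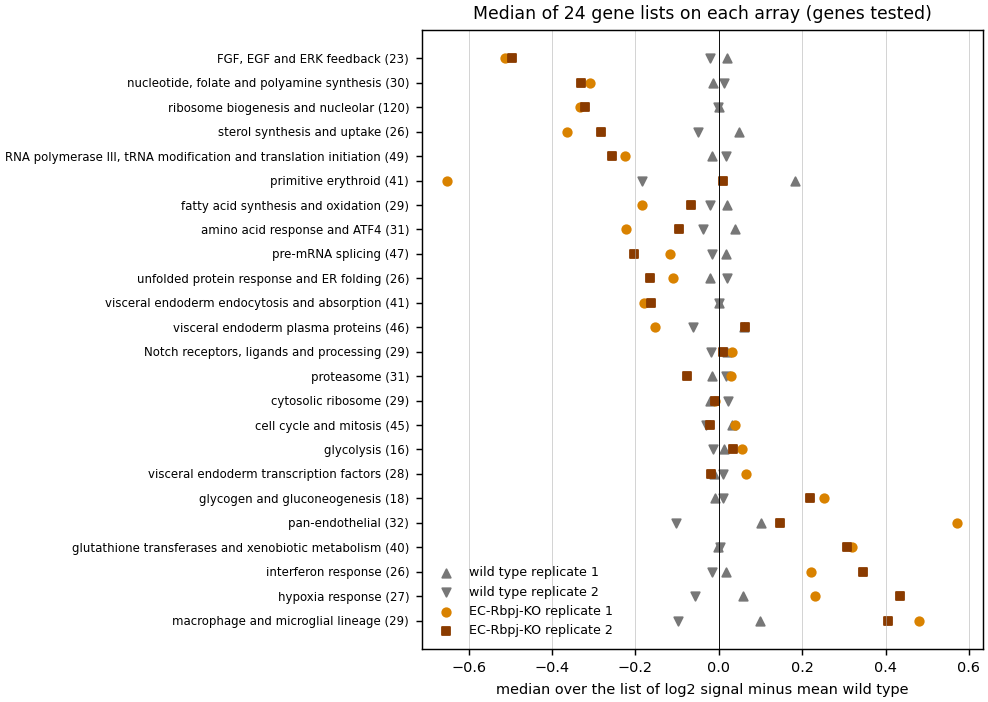
Median over each of 24 gene lists of the log2 signal minus the mean wild type log2 signal (horizontal axis) on each array, with the number of tested genes in brackets. The 2 EC-Rbpj-KO arrays lie close together on the same side for ERK feedback, nucleotide synthesis, ribosome biogenesis and glutathione transferases, and far apart for primitive erythroid and pan-endothelial genes.

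Signaling and matrix genes outside these groups changed one by one. Skil, a corepressor of TGF-beta signaling that this pathway also induces, went from 2748 and 2595 to 729 and 855 (log2 fold change -1.76, standard error 0.17, limma adjusted p = 0.000405), and the receptor gene Acvr1 from 932 and 800 to 458 and 370. These were 2 of 36 tested genes of TGF-beta and BMP signaling, of which none rose, but 2 rose after either median centring or quantile normalization. Of 33 Wnt genes 2 rose (3 after either rescaling) and none fell, the ligand gene Wnt4 (996 and 854 against 405 and 350) and the Wnt inhibitor gene Dkk1 (240 and 139 against 30 and 33). Crabp2, a carrier of retinoic acid to the nucleus, went from 205 and 267 to 692 and 626. In the matrix, fibronectin (Fn1) was at 8318 and 8481 against 11092 and 10957, the proteoglycan gene Vcan at 224 and 306 against 466 and 523, and the protease inhibitor gene Timp3 at 598 and 866 against 288 and 332. The growth factor receptor gene Pdgfra, a mesoderm marker, was at 200 and 283 against 387 and 462. Skil, Wnt4, Dkk1 and Crabp2 were called in each fit without 1 array. Fn1, Vcan, Timp3 and Pdgfra each lost the call without wild type replicate 1 and without wild type replicate 2, and Acvr1 without the first of these. Pdgfra also lost it without EC-Rbpj-KO replicate 1 and Timp3 without EC-Rbpj-KO replicate 2.

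Of the 541 genes that changed, 364 were in none of the 67 lists. Several of the largest and most stable changes were among them. Plekha6, a pleckstrin homology domain gene, went from 248 and 282 to 19 and 33, where both mutant signals were below the array-wide median signal. Mfap3l went from 364 and 367 to 66 and 43, Dram1, a p53 target of autophagy, from 1249 and 1050 to 200 and 310, and Cltrn, the collectrin gene that aids amino acid uptake, from 633 and 846 to 92 and 223. The groups were far apart in each of these. Tle6, a relative of the Groucho corepressors, went from 761 and 681 to 149 and 262, and Sgk2, a kinase gene of epithelia, from 2709 and 2522 to 987 and 750. Among the rises, Fam47e went from 121 and 105 to 544 and 480, the EGF-CFC coreceptor gene Cfc1 from 31 and 29 to 132 and 132, and Leap2, a peptide of liver and gut, from 50 and 66 to 201 and 258. These were called in each fit without 1 array.

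Other probe sets of the same genes gave a second reading. Of the called genes 215 had another probe set above the filter, 322 probe sets in all, and 299 of these changed in the same direction as the one used. The limma test was passed in that direction by 88 and in the opposite direction by none. Mtmr7 was an exception among the largest falls, since the probe set used read 56 and 63 against 985 and 848 and its second probe set 873 and 851 against 948 and 852. Beside Nrarp, Spred2, Riok2, Eif4e and Adi1 above, other probe sets of Fgfr4 (131 and 163 against 143 and 131), Gmps (513 and 455 against 553 and 517), Laptm5 (110 and 108 against 95 and 97) and Xbp1 (150 and 125 against 115 and 107) differed little or went the other way.

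The difference between the change in EC-Rbpj-KO and the change in EC-N1ICD, each against its own wild type, passed the test in 29 genes (0.266%), and in 6 of them it was positive. Dusp4, Dusp6 and Spred2 of the ERK feedback list were among them. In EC-N1ICD the log2 fold change of Dusp4 was -0.94 (limma adjusted p = 0.120), and the difference between the models was -2.33 (limma adjusted p = 0.0235). For Dusp6 and Spred2 the differences were -1.64 and -1.77, with changes in EC-N1ICD of -0.63 and -0.33. The fall in Abca1 differed by -1.67 and that in Abcb1b by -2.61. Nrarp rose in both models, by 0.75 in EC-Rbpj-KO and by 2.08 in EC-N1ICD, and its difference of -1.33 passed the test (limma adjusted p = 0.0421). For ribosome biogenesis, the median in EC-N1ICD was -0.09 against -0.34 in EC-Rbpj-KO, and no member passed the test of the difference.

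The letters GTGGGAA, the core of RBPJ binding sites, were looked for on both strands of the same promoter windows. They were in 23 of 251 fallen genes with a promoter (9.16%, Wilson 95% interval 6.18 to 13.4), 9 of 163 risen genes (5.52%, 2.93 to 10.2) and 620 of 8871 tested genes (6.99%). These intervals overlap. Windows of 30 bases are shown for Hey2, a Notch target below the filter here, and for a pair of fallen and a pair of risen genes, with the motif in capitals and TTCCCAC where it lies on the opposite strand.
Hey2, chr10:30842769-30842798, minus strand: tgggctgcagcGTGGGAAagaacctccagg
Tle6, chr10:81597344-81597373, minus strand: aggagcagtgaGTGGGAAggcggaaggcag
Nostrin, chr2:69135655-69135684, plus strand: gcttctcaccaTTCCCACtggctcttttga
Ch25h, chr19:34475211-34475240, minus strand: gggaaagggagGTGGGAAggagacggaagg
Iyd, chr10:3540247-3540276, plus strand: taaatgccagtGTGGGAAagcgcacacatt
Position along the chromosome was read from the gene order of the same build. Of the 20 tested genes on either side of Rbpj, 5 of 40 changed (12.5%, against 4.96% of all tested genes). Ldb2 and Klb went upward and Slc34a2, Arap2 and Klf3 downward. Of these, Slc34a2 was called in each fit without 1 array, and the calls of the other genes ended in at least 3 of the 4 fits, as did that of Iyd.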

How the data were processed

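Total RNA of whole yolk sac tissue, 8 samples, was labelled with biotin and hybridised to single-channel Affymetrix arrays. The deposited files give intensities that the authors computed from the probes with MAS5, as linear signals from 7 to 36554 on 45101 probe sets, and neither the MAS5 version nor a scaling target is given in the sources used here. Median signals over the tested genes were 527 to 582 on the 4 arrays compared. No detection calls were used, background limits low signals, and the number of arrays limits the precision.

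Probe sets were named through the annotation of the platform: 34958 named 1 gene and were used, and 932 that named several and 9211 that named none were left out. Each gene was represented by its brightest probe set on average, and genes at or below the 40th percentile of mean signal over the 8 arrays were left out, which kept 10913 of 18194 genes. Log2 signals, with no further scaling and no constant added, entered limma 3.58.1 (R 4.3.3) over the 4 groups of 2 arrays (lmFit, eBayes with trend, 4 residual and 7.37 prior degrees of freedom). All p-values are two-sided, and adjusted values are by Benjamini-Hochberg over all tested genes, with a threshold of 0.05. A difference between models is the contrast of both contrasts in that fit. The steps were tested on simulated data.

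The comparison, the 67 gene lists and the tests were chosen with earlier results of these data known, and 7 of the lists were put together after the values of this comparison were seen. Genes were named by a rule. It took Rbpj, the Notch receptors, ligands and Hes and Hey genes, and the 40 largest rises and 40 largest falls called without overlap. It also took up to 8 called and 3 other members of each list. Of genes past the threshold for the difference from EC-N1ICD with opposite directions in the models, it took those of smallest p. Arap2, Bnip3, Cyp51, Dusp5, Efnb2, Egln1, Gnl3, Ifit3, Klb, Klf3, Ldb2, Nolc1, Phlda1, Rasa2, Spry2, Tsr1 and Wdr43 fall outside it and were chosen after their values were seen. Alternatives changed the scaling, the constant, the filter, the probe set rule, the arrays fitted and the test, and left out each array in turn. Promoter windows came from the RefSeq table of GRCm38.p6, which held a promoter for 8871 of the tested genes. Wilson intervals are at the 95% level.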

Additional observations from a re-analysis of the deposited data

Results flagged for a closer look

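By the adjusted limma contrast of both contrasts, the changes in EC-Rbpj-KO and EC-N1ICD differed in 24 of the genes named by the rule. The rule took in some of these genes because they passed this test, so the count is no separate result. Over all tested genes 29 passed (0.266%). The values below are the log2 fold change in EC-Rbpj-KO minus that in EC-N1ICD, and no cause was tested. Of the signaling genes, the difference was -2.33 for Dusp4, -1.64 for Dusp6, -1.77 for Spred2, -1.33 for Nrarp, -2.50 for the lymphatic growth factor gene Vegfc and -3.75 for the natriuretic peptide receptor gene Npr3. For transporters and surface proteins it was -1.67 for Abca1, -2.61 for Abcb1b and -2.04 for Gucy2c. In the matrix it was -2.06 for Col14a1 and -2.25 for Fbn2. Among the remaining negative differences were those of Mtmr7 (-4.12), Sox11 (-3.17), Vwf (-2.91), Mfap3l (-2.21), Dram1 (-1.94), Tet1 (-1.57), Fam168b (-1.30) and Amot (-1.26). It was positive for Rgs18 (3.39), the neutrophil enzyme gene Mpo (2.88), Oit3 (2.33), Pde2a (1.72) and Dbp (1.68).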

How the results depend on the processing

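The count of genes that changed, 541 in the report, was 266 with the 4 arrays of the set alone (120 rose, 146 fell), and the methods' t-test left 1 gene after adjustment (1 rose, 0 fell) and 1313 at an unadjusted p under 0.05. It ran from 147 to 628 when an array was left out, with 56 to 225 risen and 88 to 493 fallen genes. The count of risen genes was 375 with median centring, 358 with quantile normalization and 142 when genes below the 60th percentile were dropped, and that of fallen genes was 210 without trend. The count of genes whose change differed from EC-N1ICD, 29 in the report, was 6 with the mean of all probe sets, 3 without trend and 12 to 80 with an array left out. The fall in Rbpj was -0.98 in the methods' t-test, past the threshold no longer (adjusted p = 0.340), and -0.93 without wild type replicate 1 and -1.03 without wild type replicate 2. Atf4, called as a fall in the report, turned to 0.0123 with the mean of all probe sets (limma adjusted p = 0.979). Of the genes called in each fit without 1 array, Mdn1, Gstm3, Hgd, Ppp1r3c, Tfrc, Calcrl, Cx3cr1 and Dkk1 lost the call with the mean of all probe sets. Dusp4, Vwf, Gys2, Ppp1r3c, Ly86, Cx3cr1, Ch25h, Dkk1, Plekha6, Mfap3l, Fam47e, Cfc1 and Leap2 were no longer tested at the 60th percentile. No cause of these shifts was tested. In all, 64 genes (19 risen, 45 fallen) were called in each of the 12 limma alternatives. Over named genes and alternatives 4217 values kept their direction and side of the threshold, 824 lost the call and 26 gained it. Another 185 changed direction with neither value past the threshold, and 1 reversed with a call. No paired analysis was possible because the mutant and wild type samples share 1 first number in their names at most, which leaves EC-Rbpj-KO replicate 1 with no wild type partner.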
